A study of Drosophila melanogaster with 4 samples.

Results

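Isolated RNA polymerase II regions are enriched regions on the autosomal arms 2L, 2R, 3L and 3R that have at least 20 kb of sequence without another enriched region on either side. They were taken from the authors' list for the replicate set, with the first and last region of each arm left out, and numbered 377 of the 5272 enriched regions on these arms and of the 6761 in the whole list. This is 7.15% of the autosomal regions. They were set against 3889 crowded regions of the same arms, which have a neighbour within 5 kb, while 1002 regions lie between these limits. The members were chosen by the positions of regions in the set list, so their widths, scores and spacing in these lists are described without a test.

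The study profiled RNA polymerase II by chromatin immunoprecipitation and sequencing in head nuclei of wild-type Drosophila melanogaster of the strain Oregon-R, labelled as mixed adults. The 4 samples are 2 ChIP libraries made with an Abcam antibody and 2 input libraries, and neither a genotype nor a treatment was compared. Flies came from population cages and heads were separated with sieves, so each library pools nuclei of all the cell types of many heads. The lists carry no gene values, so the tissue label was not checked against marker genes, and read depth is unknown.

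RNA polymerase II transcribes all protein-coding genes. In chromatin it is found both at promoters, where in flies it often pauses shortly after initiation, and along the bodies of genes under active transcription. The fly genome is compact, with many genes lying close to each other, but it also holds long stretches with few genes. An enriched region can thus be a single narrow site or a broad stretch, and neighbouring genes can give regions that adjoin. No annotation of the build of these coordinates (FlyBase release 5) was used here, so regions are given by position and no gene is named.

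Isolated regions were narrower than crowded ones but carried higher scores. In the set list their median width was 2317 bp (interquartile range 2140 to 2854), against 2826 bp (2064 to 4853) for crowded regions. The authors give each region a score without stating its scale, and it was read here as a log2 value from the numbers themselves. The median score was 1.59 (0.61 to 2.37) for isolated regions and 0.87 (0.40 to 1.45) for crowded regions. The autosomal regions were also ranked by score and split evenly into 5 score classes, from 1 (lowest) to 5 (highest). Class 5 held 45.6% of the isolated regions, 172 in all, and 15.4% of the crowded ones, with 20.0% over all regions by construction. Class 1 held 15.4% of the isolated and 21.3% of the crowded regions, again with 20.0% over all.

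The same rule applied to each replicate's own list gave the same directions. It found 409 isolated regions in replicate 1 and 391 in replicate 2. Replicate 1 had a median width of 2255 bp for isolated and 2764 bp for crowded regions, and replicate 2 had 2320 and 2720 bp. The difference averaged -454.5 ± 77.1 bp (SD, n = 2). For the score, replicate 1 had medians of 1.64 for isolated and 1.00 for crowded regions, and replicate 2 had 1.79 and 1.14, a mean difference of 0.65 ± 0.011 (SD, n = 2). Both differences were larger than the spread between the replicate lists.

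The difference in score depended on what isolated regions were set against. Crowded regions come in clusters, with a median of 3 and up to 15 regions in succession at most 5 kb apart. When each of the 1140 clusters was represented by its highest-scoring region, the median of these was 1.63 (1.21 to 2.07), against 1.59 for isolated regions. The difference (isolated minus cluster maxima) was then -0.045, and the difference in width grew to -1431.5 bp. In replicate 1 the medians were 1.64 for isolated regions and 1.62 for the 1071 cluster maxima, and in replicate 2 they were 1.79 and 1.84 for 1087 maxima. The medians of isolated regions and of cluster maxima thus lay close together in all 3 lists. A cluster maximum was picked by its score and an isolated region was not, so the choice itself raises the scores of the maxima. Spearman's rho of width and score was 0.64 across crowded regions. Whether the choice also favours wide regions was not tested.

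The median width of isolated regions lay between 2180.5 and 2384 bp in score classes 3 to 5, while the spread around it differed. In score class 5, isolated regions had a median width of 2384 bp (interquartile range 2294.75 to 2964.5), against 3517 bp (2523 to 5691) for crowded regions. In class 4 the medians were 2340 bp (2210.5 to 4389) for isolated and 4722.5 bp (2908.75 to 7834.25) for crowded regions. In this class 15 of 63 isolated regions (23.8%) were at least 5 kb wide, as were 47.2% of its crowded regions. In class 3 the medians were 2180.5 bp for isolated and 3852 bp for crowded regions. The order was reversed in class 1, with 1868.5 bp for isolated regions and 1675 bp for crowded ones. Over all score classes, Spearman's rho of width and score was 0.57 across the 377 isolated regions and 0.64 across the crowded ones. Widths of 2 to 3 kb were found in 60.5% of isolated and 31.1% of crowded regions, against 36.6% of all autosomal regions.

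Many isolated regions of score classes 3 to 5 lay close to a lower edge in the plot of width against score. The edge was measured as the 5th percentile of width over all autosomal regions, in 20 finer classes by score, over the range of these classes, so the 104 isolated regions of classes 1 and 2 were not placed against it. In the set list it lay at 2089.3 bp at the low end of this range and at 2307.3 bp at the high end. Of 273 isolated regions in this range, 166 (60.8%) were within 10% of the edge, as were 407 of 2229 crowded regions (18.3%) and 26.5% of all. The shares were 65.1% ± 4.09 for isolated and 21.1% ± 3.31 for crowded regions in the replicate lists (SD, n = 2).

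**Figure D1:**
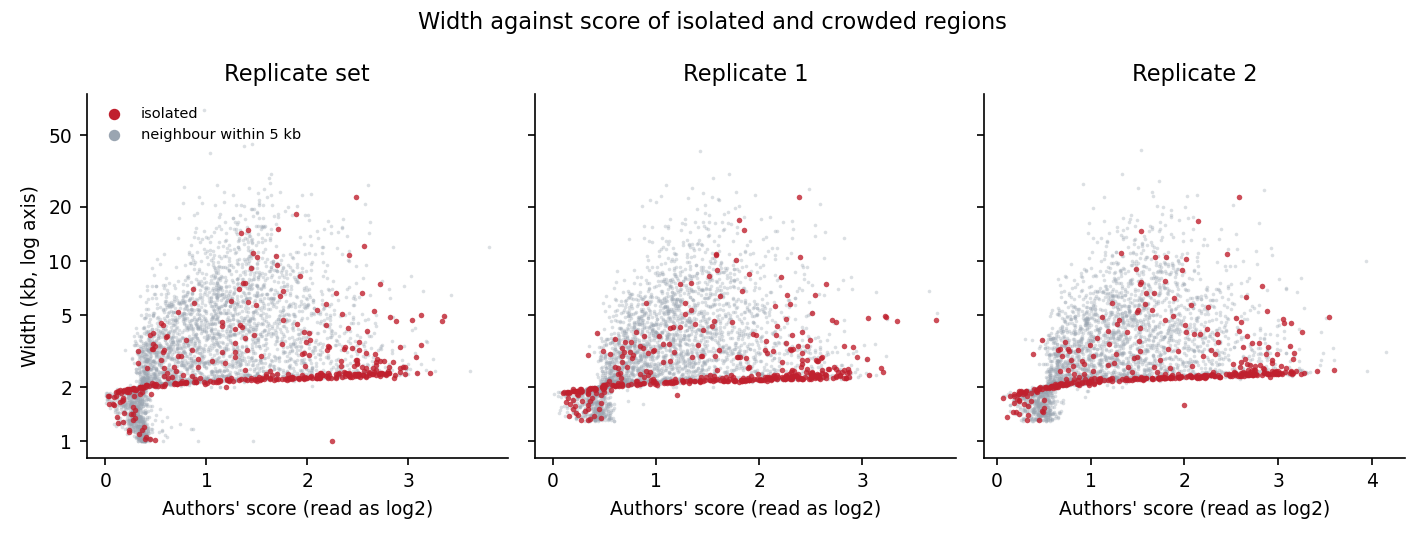
Width in kb (log axis) against the authors' score (read as log2) for each isolated region (red) and each region with a neighbour within 5 kb (grey), in the list for the replicate set, replicate 1 and replicate 2. At higher scores many isolated regions lie along the lower edge of the cloud near 2.3 kb and some lie well above it, while crowded regions spread more widely.

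Broad regions were few among the isolated ones. A width of at least 5 kb was found for 32 of 377 isolated regions (8.49%) and 24.0% of crowded ones, against 21.1% of all autosomal regions. Those of 10 kb or more numbered 10 (2.65%), against 5.89% of crowded regions and 5.06% of all. The widest was at 2R:8145771-8168462, 22.692 kb wide with a score of 2.48, and its nearest neighbours lay 56.39 and 24.565 kb away. It was a single region of 22574 bp in replicate 1 (score 2.39) and of 22723 bp in replicate 2 (score 2.58). This region was both broad and strong, with a score in class 5.

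The other 4 of the 5 widest regions scored lower. The region at 3L:22856112-22874314 was 18.203 kb wide with a score of 1.89, and its replicate regions scored 1.81 (replicate 1) and 2.15 (replicate 2). The region at 2R:5640353-5655527 was 15.175 kb wide with a score of 1.71, and 1.85 and 1.54 in the replicates. Both were 1 region in each replicate. Those at 3L:5347218-5362040 (14.823 kb, score 1.41) and 3R:5449954-5464264 (14.311 kb, score 1.34) were each split into 2 regions in both replicates.

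Score and width were also followed over the distance to the nearest neighbour. The median score in the set list was 0.80 for the 1882 regions whose smaller gap was under 1 kb, 0.97 for gaps of 2 to 5 kb and 1.23 for gaps of 10 to 20 kb. Among isolated regions it was 1.31 for the 158 with a smaller gap of 20 to 30 kb, 1.75 for the 131 with 30 to 50 kb and 2.00 for the 88 with 50 kb or more. The medians of the replicate lists were also higher in each class of gap from 10 kb upwards than in the class before it. Median width was 2942.5 bp below 1 kb and 2329.5 bp at 10 to 20 kb, and lay between 2266.5 and 2346 bp in the 3 isolated classes.

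Within the isolated regions themselves the relation between gap and score was loose. Spearman's rho was 0.18 across the 377 regions, which share libraries and in part the gaps between them, and it was 0.06 for gap and width. The limit of 20 kb cut through a continuous range. The regions just inside it, by the smaller gap, were at 2L:18880115-18882254 (20.002 kb, score 0.80), 2L:20483804-20485476 (20.038 kb, score 0.16) and 2R:7036383-7038433 (20.165 kb, score 0.47). Those just outside were at 3R:953339-955620 (19.973 kb, score 0.43), 2L:9018590-9020770 (19.942 kb, score 1.44) and 2R:1690862-1693521 (19.941 kb, score 2.78).

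**Figure D2:**
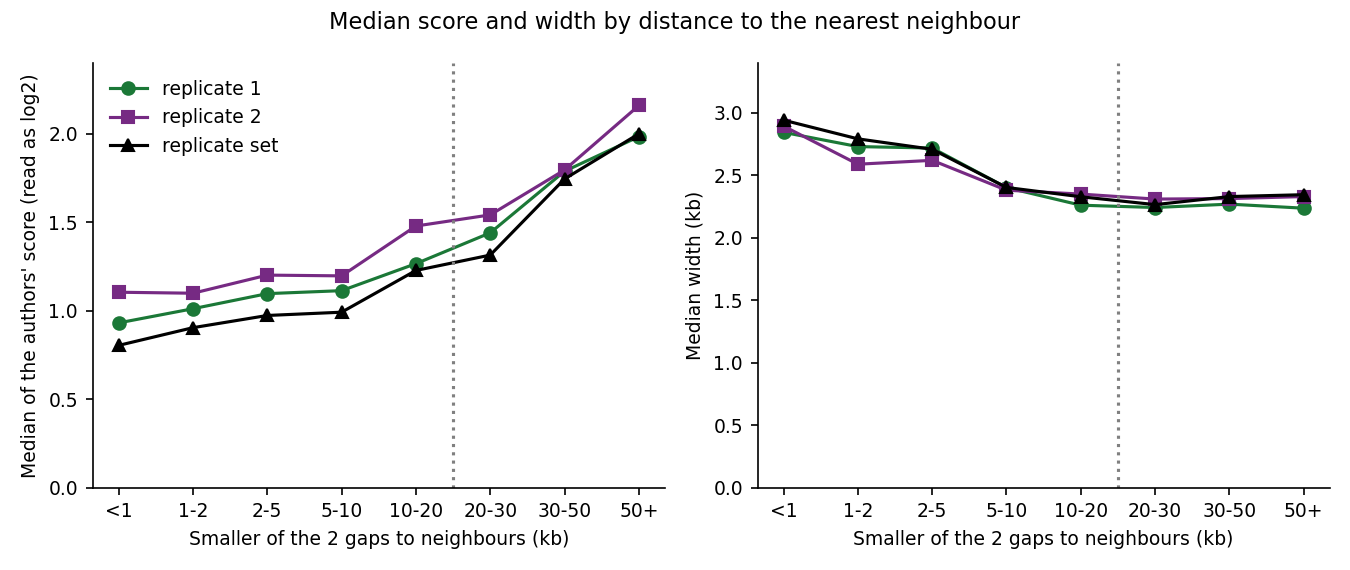
Median score (left, authors' score read as log2) and median width in kb (right) of autosomal regions by the smaller of their 2 gaps to neighbours, in kb, for the replicate set and each replicate list. The dotted line marks the limit of 20 kb, and in the set list the median score is 0.80 at the shortest and 2.00 at the longest gaps.

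The highest-scoring isolated regions also ranked high in both replicates. They were picked by the set score, which comes from the same libraries, so high ranks there follow in part from the choice. The 10 highest lay on 2L (5), 3L (3) and 3R (2), and all 10 had a single region in each replicate. Their score percentile among the autosomal regions was at least 98.99 in replicate 1 and at least 91.8 in replicate 2. The highest, at 2L:13546468-13551451, was 4984 bp wide with a score of 3.35, and its neighbours lay 31.969 and 87.738 kb away. Its scores were 3.22 in replicate 1 and 3.55 in replicate 2, at percentiles 99.73 and 99.80.

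The region in second place, at 2L:10690523-10695150 (score 3.34), scored 3.72 in replicate 1 and 2.58 in replicate 2, at percentiles 99.98 and 91.8. It is one of 2 among these 10 whose percentile was lower by over 5 points in replicate 2. The other was at 3L:8638297-8642990 (score 3.04), with 3.33 and 2.61, at percentiles 99.88 and 92.2. The region at 2L:15716997-15719390, only 2394 bp wide, scored 3.22 in the set list, and 3.20 and 3.24 in the replicates. The region at 3R:16077379-16080817 scored 3.13, and 2.91 and 3.25 in the replicates.

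Regions of the highest scores were also found with very long gaps. On 3L, 2 of the 10 highest were direct neighbours, with 112.038 kb between them. The region at 3L:13105709-13108653 had a score of 3.08, with 3.05 (replicate 1) and 3.16 (replicate 2). The region at 3L:13220692-13223097 also had 3.08, with 3.07 and 3.16 in the replicates, and its other neighbour lay 125.54 kb away. The remaining 3 were at 2L:14614431-14619476 (3.13), 3R:8372710-8375073 (2.96) and 2L:7529133-7531729 (2.96).

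The most isolated regions were mostly single narrow sites, as were many isolated regions with smaller gaps. Widths of 2 to 3 kb were found in 60.5% of all isolated and 36.6% of all autosomal regions. Spearman's rho of smaller gap and width was 0.06 across the isolated ones. The 10 with the largest smaller gap lay on 2R (4), 3R (3), 3L (2) and 2L (1), and 8 of them were between 2 and 2.6 kb wide. The first was at 3R:2011986-2014183, with 176.624 and 154.596 kb of sequence without an enriched region on its sides. It was 2198 bp wide with a score of 1.32, and its replicate regions scored 1.19 (replicate 1) and 1.46 (replicate 2). The next, at 3L:13658565-13660929, had gaps of 145.013 and 134.411 kb and a score of 1.70. The replicates gave 1.68 and 1.79.

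Of these 10 regions, 5 were in score class 5. The region at 2R:19090196-19092560 had gaps of 127.048 and 122.234 kb and a score of 2.75, with 2.58 (replicate 1) and 2.94 (replicate 2). The region at 3R:11490647-11493185, with gaps of 116.364 and 118.801 kb, had 2.92, 2.85 and 3.09. The one at 3R:23261919-23264302 had a score of 2.61, and 2.57 and 2.68 in the replicates. The one at 2L:17259564-17261800, scored 1.98, with 1.88 and 2.13. The pair member at 3L:13220692-13223097 named above was the other.

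The other 3 of the 10 were weaker and lay on 2R. The region at 2R:1382232-1384382 had a score of 1.04, with 1.09 (replicate 1) and 0.99 (replicate 2). The region at 2R:15997924-16005527 was 7604 bp wide with a score of 1.38, and it was a single region in replicate 1 but split into 2 in replicate 2. Its neighbour on 1 side, 104.871 kb away, was the region at 2R:15889784-15893052. That region had a score of 0.47 and was called in replicate 1 alone, with a score of 0.75 there.

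Gaps on the sides of isolated regions took up much of the arms. The smaller gap had a median of 32350 bp and the larger gap a median of 60411 bp, with the longest at 460887 bp. Both gaps reached 50 kb in 88 regions and 100 kb in 12. Counted once each, the 615 gaps that flank an isolated region came to 34.6 Mb, or 35.8% of the length of the 4 arms and 45.5% of all sequence between enriched regions. The isolated regions themselves covered 1.13 Mb, which is 5.52% of the enriched sequence of these arms.

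Some isolated regions followed each other. Of the 377, 220 had another isolated region as a direct neighbour. All 377 together formed 238 runs, of which 157 held a single region. Isolated regions made up 7.15% of all autosomal regions, but a neighbour of one already has 1 gap of 20 kb or more by the rule. Of all gaps between regions, 20.3% were that long. The count of 220 is thus a description and was not tested. The longest run held 7, on 2L between 14407990 and 14973361, a span of 565.372 kb. In order along the arm their scores were 2.76, 2.28, 3.13, 2.48, 0.28, 1.53 and 2.47. All but the region with 0.28 were called in both replicates. That region, at 2L:14742504-14744279, was called in replicate 1 alone, with a score of 0.56.

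Runs differed in strength. A run of 5 on 2L between 1255341 and 1556289 had a median score of 2.09. A run of 5 on 2R between 4124061 and 4309828 had a median of 0.62, and only 3 of its regions were called in both replicates. The 2 other runs of 5 lay on 3L, between 8638297 and 8821830 (median score 2.18) and between 5347218 and 5516889 (1.09).

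Isolated regions were found in both replicates more often than crowded ones, and the shares differed at the weak end of the list. Of the 377, 336 (89.1%, exact 95% limits 85.5 and 92.1) shared at least 1 bp with a region of each replicate, against 77.5% (76.2 to 78.8) of crowded regions and 80.0% of all autosomal regions. These intervals cover the counting of regions only. The replicate lists come from the libraries that also gave the set list, so the shares describe these libraries. In score classes 3 to 5, every isolated region but 1 of 273 was found in both replicates, and for crowded regions the share was between 99.4% and 99.9% in each class.

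In class 1, 26 of 58 isolated regions (44.8%, 31.7 to 58.5) and 173 of 829 crowded regions (20.9%, 18.1 to 23.8) were found in both. In class 2 the shares were 82.6% (68.6 to 92.2) for isolated and 74.6% (71.5 to 77.5) for crowded regions, with intervals that overlap. Regions between the limits had 37.1% (29.8 to 44.9) in class 1 and 82.5% (76.1 to 87.8) in class 2. When only the upper 50% of the set list by score was taken before gaps were measured, the difference was gone, at -0.158 percentage points. When each cluster was represented by its highest-scoring region, the share of isolated regions was lower by 8.16 percentage points. These cluster maxima were picked by score, and the share found in both was lowest in score classes 1 and 2. What part this choice had in their share was not tested.

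**Figure D3:**
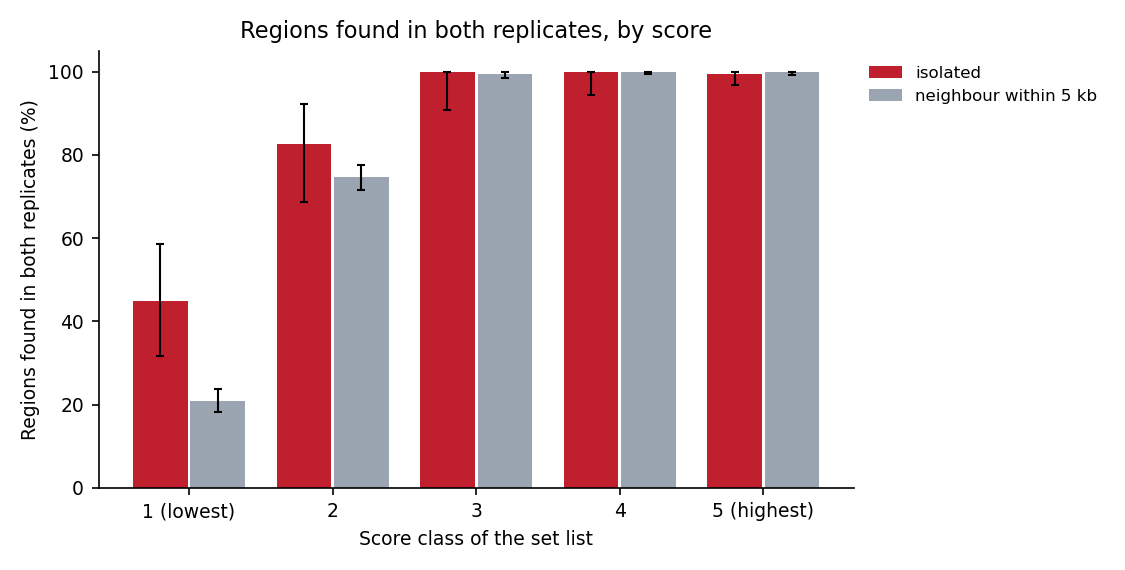
Share of regions (%) that overlap a region of both replicates, for isolated regions (red) and regions with a neighbour within 5 kb (grey), by score class of the autosomal set list (1 lowest, 5 highest). Error bars are 95% exact binomial intervals, and the bars differ most in class 1, at 44.8% and 20.9%.

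Regions without a partner were narrow and weak. Overlap with neither replicate was found for 20 isolated regions (5.31%), against 11.6% of crowded regions and 10.1% of all. They had a median width of 1232.5 bp and a median score of 0.31, against 2349.5 bp and 1.79 for the 336 found in both. Regions without a partner were much the same elsewhere, with medians of 1287 bp and 0.34 among crowded regions. Among all autosomal regions these medians were 1278 bp and 0.34. The set list holds regions from 1001 bp, the replicate lists only from 1301 bp, and 11 of the 20 were narrower than 1301 bp. A width of at least 1301 bp was found for 365 of the 377 isolated and 3608 of the 3889 crowded regions.

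One of these 20 scored high. It was the region at 2L:21424228-21425228, 1001 bp wide, with a score of 2.24, the narrowest of all isolated regions and the only one of score class 5 absent from both replicates. It lay 1.59 Mb from the centromeric end of the assembled arm, and its neighbours were 28.89 and 33.052 kb away. The next highest of the 20 were at 3R:9727295-9728309 (score 0.495), 3L:10586944-10588767 (0.46), 3R:17271244-17272277 (0.44) and 3R:1536293-1537349 (0.40). The 5 narrowest isolated regions were all among these 20. The ones not yet described as such are 3R:9727295-9728309 (1015 bp), 3R:17271244-17272277 (1034 bp), 3R:1536293-1537349 (1057 bp) and 2R:11957776-11958804 (1029 bp, score 0.39).

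Calls in a single replicate were unevenly divided among isolated regions. Replicate 1 alone was overlapped by 17 (4.51%) and replicate 2 alone by 4 (1.06%). Among crowded regions the counts were 203 (5.22%) and 220 (5.66%), and over all autosomal regions the shares were 4.87% and 4.97%. The 17 had set scores of at most 0.47 and the 4 of at most 0.36. Read from the replicate lists, 20 of 409 isolated regions of replicate 1 had no partner in replicate 2, and 9 of 391 isolated regions of replicate 2 had none in replicate 1. With 1 library on each side this imbalance has no replicate check.

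Where both replicates gave a region, they gave nearly the same edges. In the 324 isolated regions with exactly 1 region in each replicate, the edges differed by a median of 44 bp (interquartile range 26 to 74), against 71 bp (34 to 209) in 2587 such crowded regions. In score class 5 the medians were 42 and 55 bp, and in class 4 they were 43.5 and 66.5 bp. The median overlap was 96.1% of the sequence covered by either replicate for isolated regions and 93.5% for crowded ones. A division into 2 or more regions in a replicate was found for 12 isolated regions (3.18%) and 11.1% of crowded regions, against 9.65% of all.

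Isolation was also read in the replicate lists, for the isolated regions found in both. Of the 336 isolated regions found in both, 317 (94.3%) were isolated by the same 20 kb rule in both replicate lists. A further 10 met it in replicate 1 alone, 4 in replicate 2 alone and 5 in neither. Isolated regions not found in both were left out of these counts. The replicate lists hold only 54 regions on these arms that the set list lacks, 15 of them in gaps beside isolated regions. Isolation in the set list thus left little room for another outcome, and the share is no separate check.

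Scores ranked isolated regions alike in the replicates, with Spearman's rho of 0.96 over 324 pairs, against 0.95 over 2587 crowded pairs, and rho for width was 0.91 and 0.88. These pairs come from the same libraries and are no independent samples. The score percentiles lay within 10 points of each other in 281 of 336 regions (83.6%) and differed by over 20 points in 17. Of these 17, 6 stood higher in replicate 1 and 11 in replicate 2.

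The largest difference was at 3R:901997-914140, a region of 12144 bp with a score of 2.56. It was split into 2 regions in replicate 1 and 3 in replicate 2, so only the pieces with the largest overlap were compared. That piece was 10346 bp wide in replicate 1 (score 2.62, percentile 97.0) and 6683 bp wide in replicate 2 (score 1.21, percentile 50.1). The next were higher in replicate 2. The region at 2R:433365-437334 had 0.35 (replicate 1) and 0.93 (replicate 2), at percentiles 5.59 and 37.5. The region at 3R:1824731-1835361 was split into 2 in replicate 1, where the piece with the largest overlap was 6315 bp wide (score 0.96), and was 1 region of 10598 bp in replicate 2 (score 1.80). The last 2 of the 5, at 2R:6236479-6238580 and 2R:13103163-13105193, were also higher in replicate 2, by 28.2 and 28.1 percentile points.

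**Figure D4:**
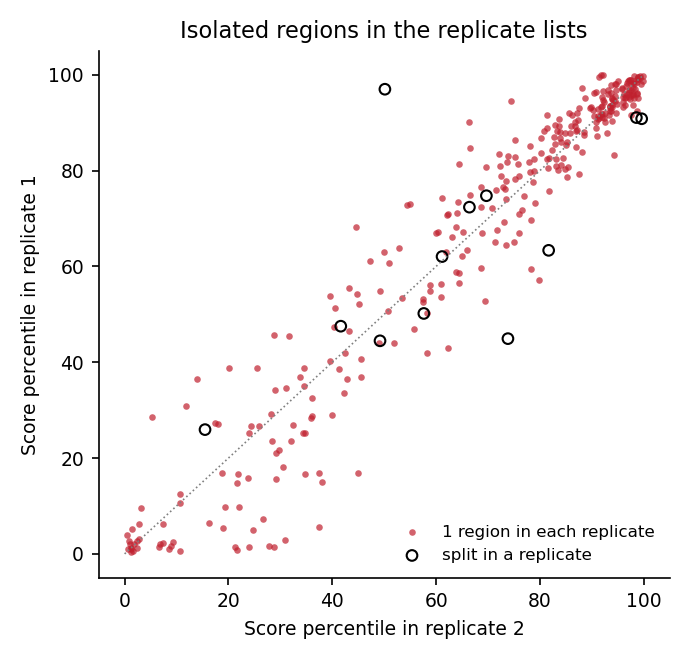
Score percentile in replicate 1 (vertical axis) against that in replicate 2 (horizontal axis), each among all autosomal regions of its list, for the 336 isolated regions found in both replicates. Open circles are regions split in a replicate, shown by the piece with the largest overlap, and the dotted line marks equal percentiles.

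Isolated regions were found along the whole of each arm. Per Mb of the arm, 2L held 4.65, 3L 4.16, 3R 3.51 and 2R 3.31 of them. The rule applied to each replicate gave 4.87 ± 0.307 on 2L, 4.46 ± 0.144 on 3L, 3.80 ± 0.253 on 3R and 3.43 ± 0.100 on 2R (SD, n = 2). The arms 2L and 3L thus exceeded 3R and 2R by more than the spread between replicates, while 2L and 3L differed from each other by about that spread. As a share of the regions of each arm, isolated ones made up 9.15% on 2L, 8.04% on 3L, 6.31% on 3R and 5.46% on 2R, against 7.15% over all 4.

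The traits of isolated regions were found on each arm. Median widths were 2307 bp on 2L, 2315 on 2R, 2295 on 3L and 2347 on 3R, each below the median of the crowded regions of its arm, which ran from 2715.5 to 2931 bp. Median scores were 1.76, 1.34, 1.59 and 1.50 on these arms, each above the crowded medians of 0.87, 0.91, 0.88 and 0.85. The share found in both replicates was lowest on 2R, at 60 of 70 (85.7%), and highest on 2L, at 97 of 107 (90.7%).

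In the set list all 95 full bins of 1 Mb held at least 1 isolated region, with a median of 4 and a highest count of 11. The bin from 5 to 6 Mb on 3R held 1 in the set list and 0 in each replicate list. The bin with 11, 14 to 15 Mb on 2L, held 19 regions in all, and the rule applied to the replicates found 11 and 8 there. The next, 1 to 2 Mb on 2L, held 10 isolated among 46 regions, with 12 in each replicate. These 3 bins were chosen after their values were seen. Over the 95 bins Spearman's rho of the isolated count and the count of all regions was -0.42. The rule uses these same positions, and bins with many regions leave less room for gaps of 20 kb. This value is therefore no result separate from the rule. The counts of the replicates ranked the bins alike, with rho = 0.83.

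Each arm was divided into 10 equal segments from its centromeric end, and isolated regions numbered between 32 and 48 in these segments over the 4 arms. Segment 1, next to the centromeric end, held 34 isolated and 256 crowded regions, and the other segments held 347 to 518 crowded ones. In the 2 Mb closest to the centromeric side of the assembled arms there were 3.75 isolated regions per Mb, against 3.92 on the rest. All enriched regions came to 37.9 per Mb there and 56.1 on the rest. As a share of the regions present, isolated ones made up 9.90% (95% exact interval 6.78 to 13.8) there and 6.98% (6.29 to 7.73) on the rest. Their median score was 1.17 in these stretches (30 regions) and 1.67 on the rest (347 regions), and their median width was 2559 and 2310 bp.

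The arm 3R went the other way from the pooled values for all enriched regions per Mb and for the share, score and width of isolated ones. It held 61 enriched regions per Mb in its centromeric 2 Mb and 55.3 on the rest, and isolated ones made up 5.74% (2.34 to 11.5) and 6.35% (5.15 to 7.75) of them. The median score of its isolated regions was 1.69 in the centromeric 2 Mb (7 regions) and 1.48 on the rest (91 regions), and their median width was 2297 and 2350 bp. On 2L, 2R and 3L these 4 differences had the direction of the pooled values. Isolated regions per Mb differed in another way between the arms. They came to 5.00 in the centromeric 2 Mb and 4.62 on the rest for 2L, and 3.50 and 3.29 for 2R. On 3L they came to 3.00 and 4.26, and on 3R to 3.50 and 3.51. Each arm has only 6 to 10 isolated regions in these 2 Mb. Of the 303 enriched regions in the pooled 2 Mb stretches, 122 lie on 3R.

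**Figure D5:**
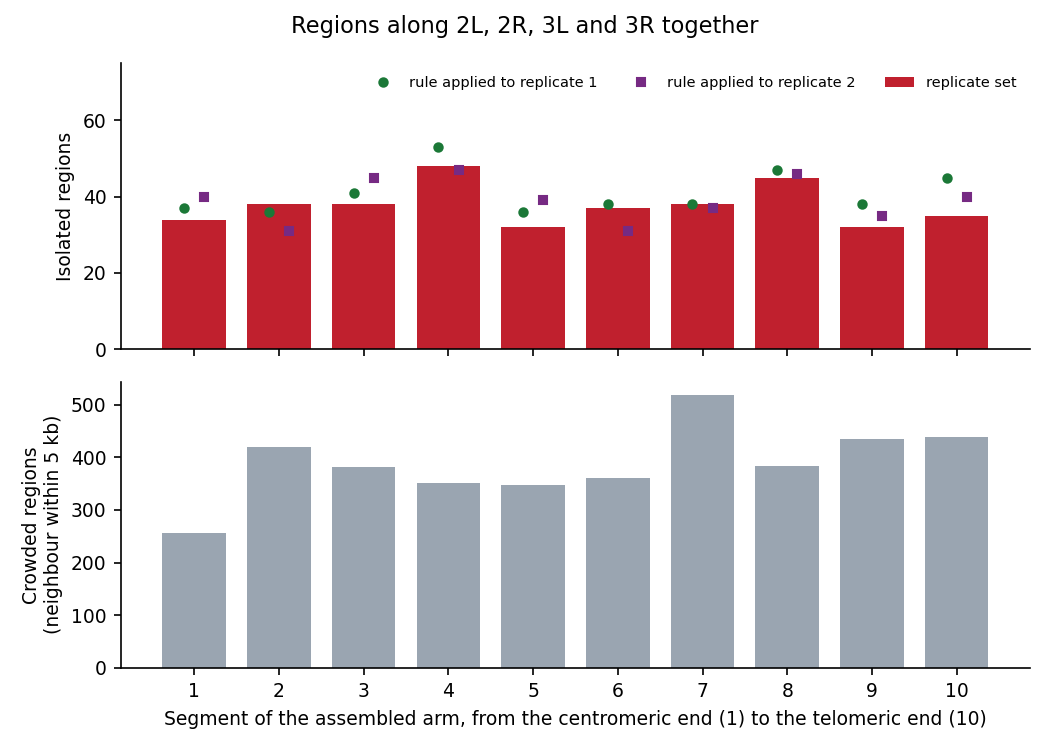
Number of isolated regions (top, red bars) and of regions with a neighbour within 5 kb (bottom, grey bars) in 10 equal segments of the assembled arms 2L, 2R, 3L and 3R together, from the centromeric to the telomeric end. Circles and squares give the isolated regions found when the rule is applied to replicate 1 and replicate 2, and isolated counts stay between 32 and 48 in the set list.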

How the data were processed

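The authors deposited a list of regions per ChIP replicate and another for both combined, with a score per row, on 1-based coordinates of FlyBase release 5, per the file headers. The submitters' processing notes list Bowtie 0.12.7. Not given in the sources used here are the region caller, its threshold and how replicates were joined. The deposited scores were taken to be log2 values of unknown offset. Relative to the most common score, 22.9% of the set list gave ratios of whole numbers (denominators to 300, relative tolerance 1e-10) when raised to base 2, against 0.235% with base e and 0.265% with base 10. Scores were compared within a list only.

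A gap is the number of bases between an enriched region and the next. Regions were classed by the smaller of their 2 gaps, and a region counted as found in a replicate when it shared 1 bp or more with a region there, taking the replicate region with the largest overlap. Percentiles and score classes refer to the enriched regions of 2L, 2R, 3L and 3R. Exact intervals are Clopper-Pearson intervals. No p-value is given, since the regions were chosen from these lists and 2 replicates allow no permutation test, and the labels do not state that the replicates came from separate collections. The members, lists and comparisons were chosen with earlier results of these data known. Named are the 10 regions with the highest score, the 10 with the largest smaller gap, the 5 widest, the 5 narrowest, the 5 highest-scoring without a replicate region, the 5 with the largest percentile difference, 3 on each side of the limit and the longest runs. Gaps and overlaps were tested on simulated data. Sequences were not used here, because the gene table consulted is of Release 6. Tools were scipy 1.17.1, pandas 2.3.3, numpy 2.4.6 and matplotlib 3.10.9 under Python 3.11.15.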

Additional observations from a re-analysis of the deposited data

Results flagged for a closer look

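Rows called depleted, which enter none of the comparisons above, lay in the gaps around isolated regions. Of the 39 depleted rows of the set list on these arms, 16 (41.0%) were inside a flanking gap, and these gaps make up 45.5% of the sequence between enriched regions. Their scores ran from -0.18 to -0.0016. An enriched region of at least 1 replicate was called at 12 of the 16 places, with replicate 1 at 5, replicate 2 at 9 and both at 2. The closest was 2182 bp from an isolated region, and 5 lay within 5 kb of one.

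The replicate lists hold 15 enriched regions inside these gaps that overlap no enriched region of the set list, 5 in replicate 1 and 10 in replicate 2, with scores of 0.06 to 0.43. Of these, 14 lay at a depleted row. With depleted rows counted as neighbours, 367 regions in place of 377 were isolated.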

How the results depend on the processing

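The number of isolated regions was 781, 219 and 88 with gaps of 10, 30 and 50 kb, and 587 when the upper 50% of the list by score was taken first. It was 391 and 409 with a single replicate list. The difference in median width (isolated minus crowded) was negative under all 15 alternatives. It was -906 bp with regions within 500 bp merged, -1525 bp in the upper 50%, -1431.5 bp against cluster maxima and -717 bp without regions narrower than any replicate region, and it ran from -509 to -400 bp with a single replicate list.

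The difference in median score was 0.53, 0.61, 0.92 and 1.13 with gaps of 10, 15, 30 and 50 kb, 0.59 after merging, 0.40 in the upper 50% and 0.80 without the centromeric 2 Mb. It was 0.75 and 0.70 with crowded regions defined by 2 and 10 kb, 0.68 without the narrow regions and 0.64 to 0.65 with a single replicate list. Against cluster maxima it was -0.045. The difference in the share found in both replicates was 7.48 percentage points after merging. Without the narrow regions it was 8.52, with 92.1% of isolated and 83.5% of crowded regions found in both. It was 16.4 when overlap had to reach 50% of both regions, -0.158 in the upper 50% and -8.16 against cluster maxima. Cluster maxima are picked by score, which isolated regions are not. Cluster maxima and the removal of narrow regions were chosen after seeing the data. The cause of these shifts was not tested. The share of isolated regions in the fifth of the arms next to the centromeric end was 19.1%, and 16.9% to 19.6% under 11 alternatives. No paired analysis was possible because no result comes from a test and the input libraries have no list of their own. Depth is unknown, so a weak region without a partner was not detected in that replicate and is not shown to be absent.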

Other observations

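The same rule applied to the X chromosome gave 85 isolated regions of 1278 (6.65%). Their median width was 2298 bp, against 2962 bp for crowded X regions, and their median score was 1.33 against 0.89. In replicate 1 the median scores on X were 1.45 for isolated and 1.07 for crowded regions, and in replicate 2 they were 1.72 and 1.26. Chromosome 4, where 106 of 121 regions had a neighbour within 5 kb, held 0 isolated regions in the set list and in replicate 2, and 1 in replicate 1.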
